A study of Mus musculus with 3 samples.

Results

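The immediate early and AP-1 genes *Fos*, *Fosb*, *Jun*, *Junb*, *Jund*, *Egr1*, *Dusp1*, *Ier2*, *Nr4a1* and *Zfp36* were followed across sections of mouse thymus. They are 10 of the 54838 genes listed with the counts, were taken by symbol for what they are known to do, and all 10 were detected in every section. Spatial transcriptomes came from 2 *Trp53*-/- (KO) mice, KO1134 at 17 weeks and KO1308 at 21 weeks of age, and from 1 *Trp53*+/+ (WT) mouse, WT1101, at 17 weeks. Sections and ages are given as labelled, and the KO labels may have been exchanged between the KO sections, since the spot counts and depth listed with the study for KO1308 resemble those of the section labelled KO1134. All 3 were female C57BL/6 mice that were perfused with cold PBS under pentobarbital, and each gave 1 section of frozen thymus with the tissue attached to it. The question was whether these genes followed the compartments of the thymus, where cell signalling differs, or the outer edge of the tissue, where handling could act, and how KO sections stood beside WT. A bin, a square of 27 µm that holds several cells, was kept with at least 300 genes.

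Immediate early genes are transcribed within minutes of a signal, from promoters that are ready before the signal comes and without new protein synthesis. Fos and Jun family proteins pair into the dimer AP-1, which binds DNA and turns on the next wave of genes. In thymus, signals through the T cell receptor during selection induce *Egr1* and *Nr4a1*, and contact with antigen-presenting cells of the medulla gives further signals. The same genes also respond to cold, lack of oxygen, dissection and other handling, so their place in a tissue matters for how they are read.

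The sequence just upstream of the start is shown for 4 members: *Jun* and *Junb*, which were higher in the medulla of every section, *Fos*, their partner in AP-1, and *Dusp1*, a feedback phosphatase with a match in this window. Each run holds the 250 bases before the start in the RefSeq table of GRCm38.p6, written 5′ to 3′ on the strand of the gene, and capitals mark a motif match. They lie at chr12:85473640-85473889 for *Fos* on the plus strand, and at chr4:95052223-95052472 for *Jun*, chr8:84978749-84978998 for *Junb* and chr17:26508473-26508722 for *Dusp1* on the minus strand.
Fos: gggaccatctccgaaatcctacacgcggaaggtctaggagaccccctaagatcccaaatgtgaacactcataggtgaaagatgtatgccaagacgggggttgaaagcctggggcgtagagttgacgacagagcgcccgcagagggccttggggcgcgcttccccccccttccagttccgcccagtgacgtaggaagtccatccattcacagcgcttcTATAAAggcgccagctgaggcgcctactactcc
Jun: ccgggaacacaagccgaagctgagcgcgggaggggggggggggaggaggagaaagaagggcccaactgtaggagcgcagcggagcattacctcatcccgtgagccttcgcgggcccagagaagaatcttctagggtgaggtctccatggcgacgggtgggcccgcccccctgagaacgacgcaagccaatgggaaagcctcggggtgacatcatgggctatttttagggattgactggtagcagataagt
Junb: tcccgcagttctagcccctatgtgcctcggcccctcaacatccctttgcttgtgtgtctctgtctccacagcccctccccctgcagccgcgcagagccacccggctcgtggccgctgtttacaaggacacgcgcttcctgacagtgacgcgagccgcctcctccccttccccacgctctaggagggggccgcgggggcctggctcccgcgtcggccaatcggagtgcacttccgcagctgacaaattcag
Dusp1: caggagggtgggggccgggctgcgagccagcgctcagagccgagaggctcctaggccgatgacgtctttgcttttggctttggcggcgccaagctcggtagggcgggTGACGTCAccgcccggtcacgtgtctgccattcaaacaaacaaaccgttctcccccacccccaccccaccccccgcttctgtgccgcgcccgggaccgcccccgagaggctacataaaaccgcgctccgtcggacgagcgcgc
Of the 10 members, 8 had a window in that table. The starts in it can differ from the GENCODE M21 positions used below. The window of *Jund* ends at chr8:70697738, before the gene start there at 70698949. Those of *Dusp1*, *Nr4a1* and *Zfp36* lie inside the span of the gene. Searched on both strands, the AP-1 site TGANTCA was in 0 of the 8 windows and in 6.75% of 32851 windows of this length, and the EGR site GCGTGGGCG was in 0 of 8 and 0.536%. The cyclic AMP element TGACGTCA was in the window of *Dusp1*, 143 to 136 bases before the start, and in 1.55% of all windows. The TATA box TATAAA was in that of *Fos*, 33 to 28 bases before the start, and in 12.4%. The CArG box, which binds serum response factor, was in that of *Zfp36* as CCATAAAAGG, 58 to 49 bases before the start, and in 1.47%. No match overlapped another. A match is no evidence of use, and a window without one may hold a variant or a site farther away.

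The sections differed in depth and make-up. They held 31237062, 21089885 and 41581477 UMIs for KO1134, KO1308 and WT1101, with 12020, 15855 and 27100 tissue bins and a median of 2643, 889 and 1357 UMIs a bin. Bins were placed in compartments by other genes, and the fat and lymph-node-like tissue around the thymus was found in KO sections and in no bin of WT1101. Held-out medullary markers stood at 839, 827 and 634 CPM (UMIs of a gene scaled to the usual common total of all UMIs) in medulla and 584, 307 and 172 CPM in cortex of KO1134, KO1308 and WT1101. By these markers the division was weakest in KO1134. The cortex of KO1134 had 52.0 CPM of *Rag1*, which cuts antigen receptor genes in immature thymocytes, beside 476 and 715 CPM in the other sections. In medulla *Rag1* stood at 13.3, 150 and 500 CPM. *Dntt*, another held-out cortical gene, stood at 609, 908 and 1241 CPM in cortex and 208, 279 and 733 CPM in medulla. By these cortical genes the division was weakest in WT1101. *Trp53* stood at 17.0 CPM in KO1134 and 80.0 CPM in WT1101, with KO1308 between, and 3′ reads need not cover the deleted part. All intervals below are exact at 95% and cover counting error only, and with 1 WT section no test between genotypes was made.

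Summed over all tissue, the 10 genes took 395 CPM in KO1134, 486 CPM in KO1308 and 546 CPM in WT1101, from 12283, 8483 and 22171 UMIs. Their level followed the compartment: it was 298, 410.1 and 488 CPM in cortex and 453, 602 and 792 CPM in medulla. The medulla was higher than the cortex in each section, and in each of 4 parts into which a section was divided. Beyond 200 µm from the outer tissue edge the ratio of medulla to cortex was 1.48 (interval 1.41 to 1.56) in KO1134, 1.34 (1.25 to 1.44) in KO1308 and 1.49 (1.45 to 1.54) in WT1101. The median ratio over all genes tested was 0.985, 0.955 and 0.995. In tissue bins, more cells that express a gene and more RNA per cell cannot be told apart.

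**Figure D1:**
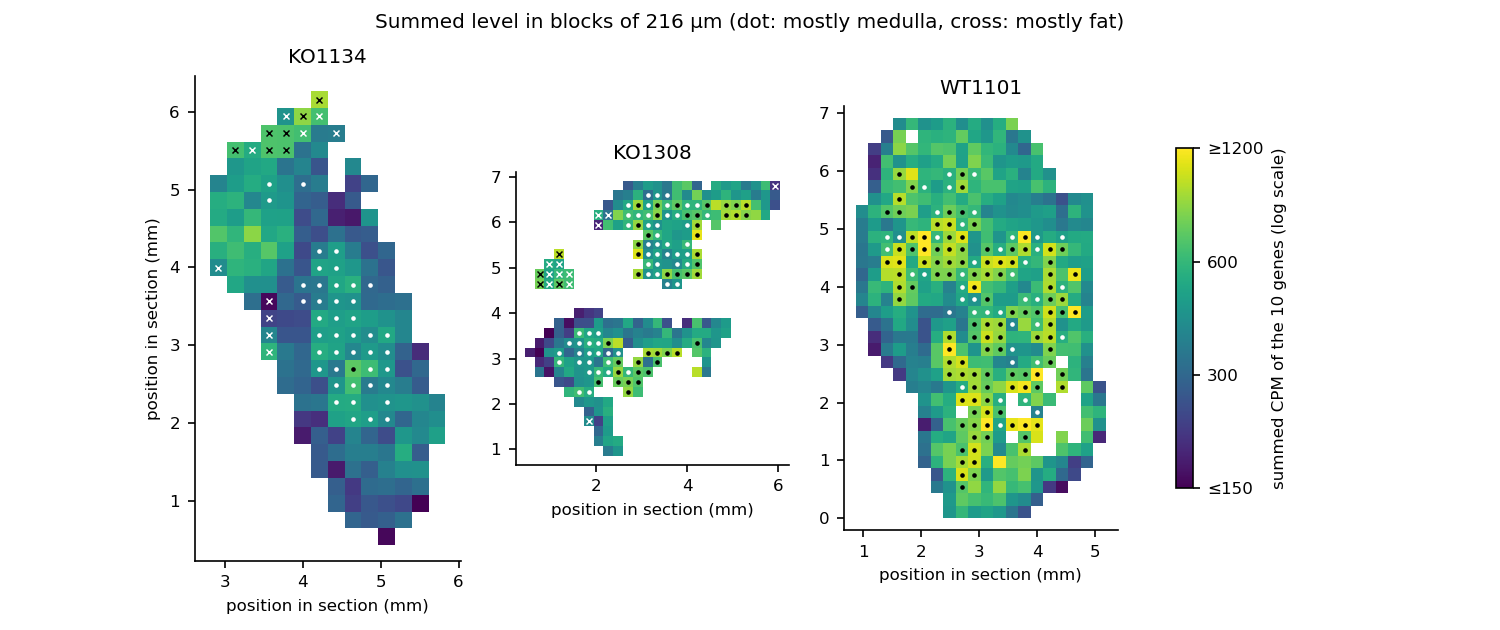
Summed CPM of the 10 genes over blocks of 8 × 8 bins with at least 20000 UMIs, drawn at their position (axes in mm, log colour scale) in KO1134, KO1308 and WT1101. Dots mark blocks that are mostly medulla and crosses blocks that are mostly fat; the brightest blocks of WT1101 are largely dotted, and its outer blocks are dark.

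A gene was called higher or lower at 1.5-fold, among genes with at least 100 UMIs over both sides. Of the members beyond 200 µm from the edge, 6 of 9 tested were higher in medulla in KO1134 (15.6% of all genes tested), 3 of 8 in KO1308 (13%) and 6 of 9 in WT1101 (14.7%). None was lower, where 12%, 11.4% and 4.59% of all genes were. Higher in all 3 sections were *Jun* and *Junb*, 2 of the 8 members tested in each, and 7.9% of all genes. With bins near the edge included, 6 of 9, 3 of 8 and 7 of 9 were higher (16.4%, 16.7% and 16.1% of all genes) and none lower (12.8%, 12.3% and 4.88%). *Fosb*, a further Fos protein, had 52, 9 and 30 UMIs in KO1134, KO1308 and WT1101 and was tested in no section.

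Among the AP-1 subunits, *Junb* is a Jun protein that is strong in activated lymphocytes. It stood at 46.3 CPM in cortex and 100.1 CPM in medulla of KO1134, at 66.0 and 168 CPM in KO1308, and at 34.2 and 83.9 CPM in WT1101. The medulla was higher in every section. Away from the edge the ratios were 2.10 (1.86 to 2.36), 2.12 (1.82 to 2.48) and 2.37 (2.12 to 2.66), and they were above 1 in all 4 parts of each section. Its exons share 173 bases with the gene *Prdx2* on the other strand, and whether counting used the strand is not given in the sources used here; *Prdx2* stood at 173, 175 and 183 CPM in medulla and at 197, 183 and 207 CPM in cortex of KO1134, KO1308 and WT1101.

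*Jun*, which can form AP-1 with itself or with Fos proteins, stood at 12.8 CPM in cortex and 23.5 CPM in medulla of KO1134, at 21.4 and 43.9 CPM in KO1308, and at 8.70 and 17.2 CPM in WT1101. Here too the medulla was higher in every section, with ratios of 1.71 (1.35 to 2.17), 1.84 (1.41 to 2.41) and 2.28 (1.77 to 2.93) away from the edge. *Fos*, the partner that needs a Jun protein to bind DNA, stood at 6.06 and 11.3 CPM in cortex and medulla of KO1134, 3.19 and 9.09 CPM in KO1308, and 6.02 and 13.5 CPM in WT1101. Its ratios were 2.04 (1.42 to 2.97), 2.34 (1.07 to 5.66) and 2.39 (1.79 to 3.20), and that of KO1308 rests on 27 and 9 UMIs, too few to be tested. *Jund*, the Jun protein that resting cells hold, differed least, at 67.8 and 73.5 CPM in KO1134, 117 and 131 CPM in KO1308, and 99.5 and 131 CPM in WT1101. Its ratios of 1.12 (0.995 to 1.26), 1.08 (0.940 to 1.24) and 1.28 (1.19 to 1.38) were below the 1.5-fold limit in each section.

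Beside AP-1 stand *Egr1*, a zinc finger transcription factor, and *Nr4a1*, an orphan nuclear receptor (Nur77) that T cell receptor signals induce. For *Nr4a1* the sections parted. Cortex and medulla stood at 28.5 and 29.9 CPM in KO1134, at 16.6 and 19.2 CPM in KO1308, and at 32.9 and 88.9 CPM in WT1101. Away from the edge the ratio was 0.982 (0.821 to 1.17) in KO1134 and 0.958 (0.666 to 1.38) in KO1308, and 2.48 (2.21 to 2.77) in WT1101, where the 4 parts lay between 2.08 and 2.83. The parts of KO1134 lay between 0.716 and 1.65 and those of KO1308 between 0 and 2.26, with 2 of 4 above 1 in each, so the highest KO1308 part lay inside the WT range. The KO ratio was 0.397 times the WT ratio in KO1134 and 0.387 times in KO1308, both against the same WT section. *Egr1* stood at 20.5 and 47.9 CPM in cortex and medulla of KO1134, at 59.4 and 76.8 CPM in KO1308, and at 144 and 229 CPM in WT1101. Its ratio away from the edge was 2.11 (1.77 to 2.51), 1.16 (0.956 to 1.40) and 1.37 (1.29 to 1.45).

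The feedback genes were less even. *Dusp1*, a phosphatase that switches off MAP kinases, stood at 9.90 and 15.2 CPM in cortex and medulla of KO1134, 17.5 and 22.8 CPM in KO1308, and 13.9 and 26.8 CPM in WT1101, with ratios of 1.73, 1.29 and 1.94 away from the edge. *Zfp36* (tristetraprolin), which marks short-lived messenger RNAs for decay, stood at 41.3 and 69.9 CPM in KO1134, 76.5 and 75.5 CPM in KO1308, and 103 and 118 CPM in WT1101. Away from the edge its ratio was 1.61 (1.41 to 1.84) in KO1134, 0.924 (0.777 to 1.10) in KO1308 and 1.07 (0.985 to 1.15) in WT1101. *Ier2*, an early response gene of growth factor signalling, stood at 64.2 and 79.5 CPM, 32.0 and 54.9 CPM, and 45.3 and 82.4 CPM in KO1134, KO1308 and WT1101, and its ratios were 1.18, 1.59 and 1.63.

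**Figure D2:**
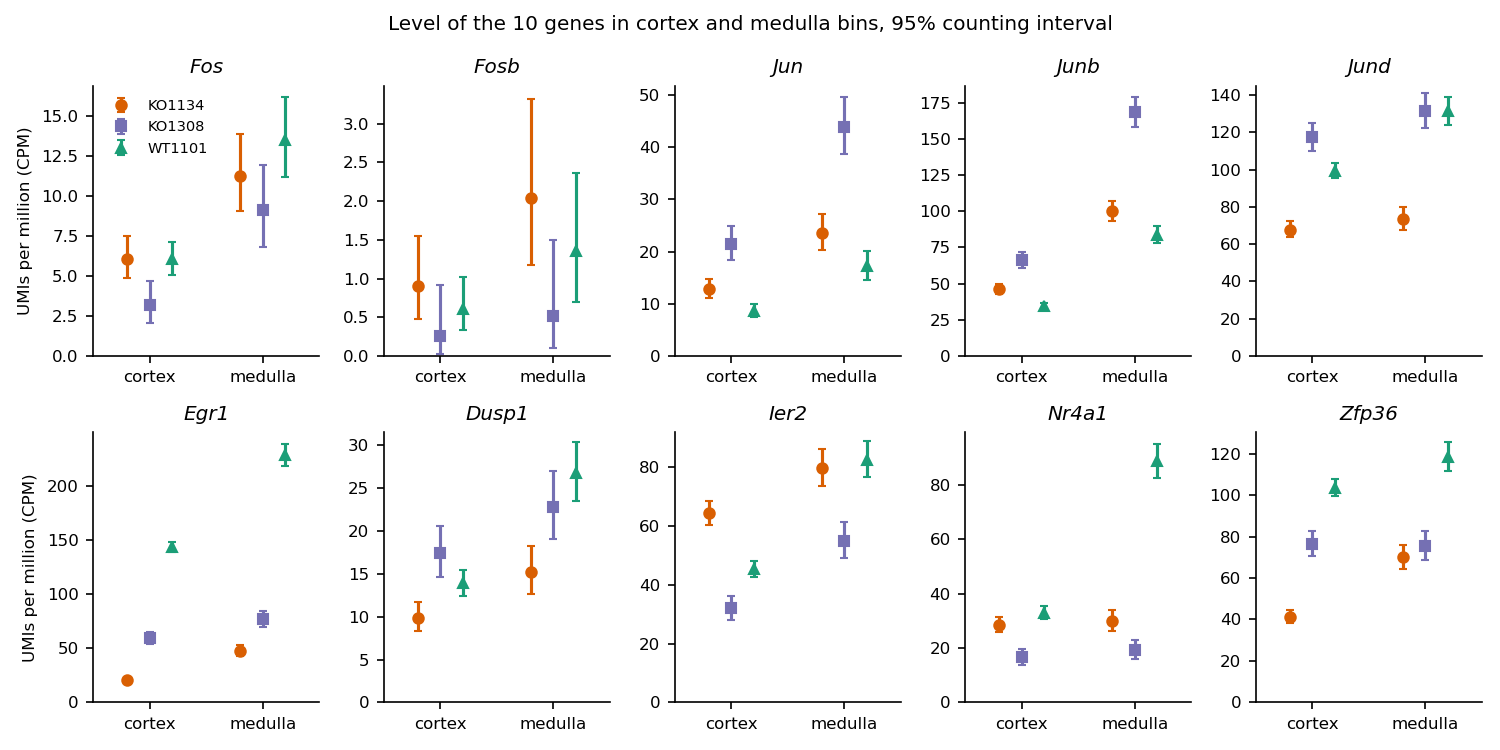
CPM of each gene (y axis) in cortex and medulla bins of KO1134, KO1308 and WT1101, with exact 95% counting intervals. *Junb* lies higher in medulla in all 3 sections, from 34.2 to 83.9 CPM in WT1101, and *Nr4a1* lies at 32.9 and 88.9 CPM in WT1101 beside 28.5 and 29.9 CPM in KO1134.

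Cell types other than thymocytes also differed between the compartments. Dendritic cell markers (4 of 4 detected) took 246, 233 and 150.2 CPM in medulla and 74.8, 61.3 and 23.5 CPM in cortex of KO1134, KO1308 and WT1101. Macrophage markers (5 of 5) took 973, 866 and 611 CPM in medulla and 726, 418 and 314 CPM in cortex. Those of smooth muscle and pericytes (6 of 6) took 265, 231 and 193 CPM and 165, 87.7 and 41.0 CPM. Over blocks, the summed members went with held-out medullary markers at Pearson's r of 0.230, 0.230 and 0.688 (n = 206, 256 and 476 blocks of 1 section each, which share its library and depth). With endothelial markers r was 0.530, 0.360 and 0.124, with connective tissue markers 0.373, 0.420 and 0.0125, and with those of smooth muscle and pericytes 0.153, 0.422 and 0.289. With neutrophil and mast cell markers it was -0.501, 0.0937 and 0.0730. Macrophage markers had r of -0.250, 0.124 and 0.411, and dendritic cell markers 0.160, 0.343 and 0.476. Endothelial markers (6 of 6) took 179, 229.8 and 197 CPM in medulla and 106, 152 and 123 CPM in cortex. The part of these cells in the levels of the members was not tested.

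Related genes gave the setting. Of all genes tested beyond 200 µm from the edge, 15.6%, 13% and 14.7% were higher in medulla of KO1134, KO1308 and WT1101. Lower were 12%, 11.4% and 4.59%, and 7.9% were higher in all 3 sections. Of 26 other immediate early genes, 11 of 23 tested were higher in medulla in KO1134, 10 of 18 in KO1308 and 16 of 23 in WT1101, with median ratios of 1.47, 1.53 and 1.71. Of the 18 tested in every section, *Fosl2*, *Ier5*, *Klf4*, *Socs3* and *Gadd45b* were higher in all 3. *Fosl2*, another Fos protein, had ratios of 2.06, 2.29 and 1.71, and *Ier5*, a further early response gene, had 2.57, 1.77 and 2.12. *Gadd45b*, a stress sensor that feeds into p38 kinase, had 3.42, 2.64 and 6.68. Of 11 AP-1 partners and ATF proteins, 3 of 9, 3 of 7 and 4 of 8 were higher, with *Fosl2* and *Batf3* higher in all 3 sections. *Batf3*, which dendritic cells need, had ratios of 2.29, 3.71 and 5.01. The kinases and serum response factor partners upstream of these genes were higher for 1 of 16, 0 of 15 and 0 of 17 and lower for 2 (*Elk1* and *Mapk8*), 0 and 0, and median ratios were 0.973, 0.838 and 0.991.

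Genes that T cell receptor signals induce, a list of 14 that shares *Egr2*, *Nr4a3* and *Gadd45b* with the other immediate early genes, were higher in medulla for 5 of 12 in KO1134, 4 of 10 in KO1308 and 9 of 14 in WT1101. Their median ratio was 1.18, 1.06 and 1.68. *Nr4a3*, a close relative of *Nr4a1*, stood at 40.0 CPM in medulla and 16.5 CPM in cortex of WT1101, a ratio of 2.43, and had ratios of 4.25 in KO1134 and 1.23 in KO1308. *Cd69*, an early activation marker, had ratios of 1.24 and 1.05 in KO1134 and KO1308 and of 1.90 in WT1101. Heat shock genes were higher for 3 of 11 in each section, *Hspa1a*, *Hspa1b* and *Hspb1*, and lower for 4, 1 and 0. *Hspa1a*, the inducible HSP70, had ratios of 2.62, 2.21 and 1.64. Hypoxia genes were higher for 0 of 6, 1 of 5 and 1 of 8 and lower for 2, 2 and 0, *Pgk1* and *Egln3* in each KO section, with median ratios of 0.923, 0.833 and 0.985. For all genes tested the shares were again 15.6%, 13% and 14.7% higher and 12%, 11.4% and 4.59% lower in KO1134, KO1308 and WT1101.

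The share of bins with a UMI of any member, with each bin thinned to 500 UMIs, was 13.2% in cortex and 20.4% in medulla of KO1134, 18.5% and 25.8% in KO1308, and 22.7% and 32.6% in WT1101. For *Nr4a1* it was 1.48% and 1.57%, 0.959% and 0.983%, and 1.75% and 4.34%. The order of the compartments was thus that of CPM. Without thinning, WT1101 had 52.3% of cortex and 51.2% of medulla bins with a member, where median depth was 1644 and 886 UMIs. Thinning left out 38 and 6 bins of cortex and medulla in KO1134, 1066 and 1458 in KO1308, and 801 and 1627 in WT1101. No tissue bin held more than 19 UMIs of the members together.

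The outer edge was compared with the interior, meaning bins within 100 µm of the outer outline with those beyond 200 µm. The outline is that of bins with at least 300 genes. In KO1308, 2629 cortex bins lay beyond 200 µm at that limit and 7313 at 100 genes. Over all tissue, the summed members stood at 353 CPM at the edge and 412 CPM in the interior of KO1134, 504 and 479 CPM in KO1308, and 364 and 602 CPM in WT1101. They were thus lower at the edge of KO1134 and WT1101, and near even in KO1308. Measuring distance to holes in the tissue as well turned the direction in WT1101, to a ratio of 1.27. The ratios were 0.857 (0.810 to 0.906), 1.05 (1.00 to 1.11) and 0.604 (0.578 to 0.630), beside medians of 0.939, 0.939 and 0.898 over all genes. At 1.5-fold, 2 of 9 members were higher at the edge in KO1134 (*Fos* and *Dusp1*, 6.28% of all genes tested), 1 of 8 in KO1308 (*Nr4a1*, 4.7%) and 0 of 9 in WT1101 (2.78%). Lower were *Junb* in KO1134 (1 of 9, 13% of all genes), none in KO1308 (8.89%), and *Junb*, *Egr1*, *Ier2* and *Nr4a1* in WT1101 (4 of 9, 12.6%). Over the alternatives these ratios of WT1101 reached 1.52, 1.24, 1.10 and 1.78, and each stayed below 1 in 11 of 12.

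The edges were not of the same tissue. Fat markers took 2507, 3043 and 30.2 CPM within 100 µm of the edge in KO1134, KO1308 and WT1101, and mitochondrial UMIs took 4.65%, 4.37% and 1.33%. Cortex was therefore compared with cortex alone. There, 0 of 8 members were higher at the edge in KO1134 (1.64% of all genes), 0 of 6 in KO1308 (1.3%) and 0 of 9 in WT1101 (2.5%). The summed members stood at 284 and 306 CPM, 422 and 405 CPM, and 374 and 531 CPM at the cortex edge and interior of KO1134, KO1308 and WT1101. The ratios were 0.930 (0.857 to 1.01), 1.04 (0.956 to 1.13) and 0.704 (0.669 to 0.742).

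In the cortex, *Fos* stood at 6.75 and 5.47 CPM at edge and interior of KO1134, 4.12 and 2.79 CPM in KO1308, and 7.01 and 5.65 CPM in WT1101. Its ratios of 1.23 (0.675 to 2.16), 1.47 (0.518 to 4.19) and 1.24 (0.802 to 1.88) have intervals that hold 1, so an excess of *Fos* at the cortex edge was not detectable at this depth. *Jun* had ratios of 0.987 (0.660 to 1.44), 0.755 (0.508 to 1.11) and 1.35 (0.941 to 1.91), and *Dusp1* had 1.41 (0.908 to 2.15), 1.04 (0.666 to 1.60) and 1.17 (0.885 to 1.53). None of 10, 8 and 11 heat shock genes tested was higher at the cortex edge of KO1134, KO1308 and WT1101, with median ratios of 0.964, 1.01 and 1.08. Nor was any of 5, 5 and 8 hypoxia genes, with medians of 1.05, 1.13 and 0.908.

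**Figure D3:**
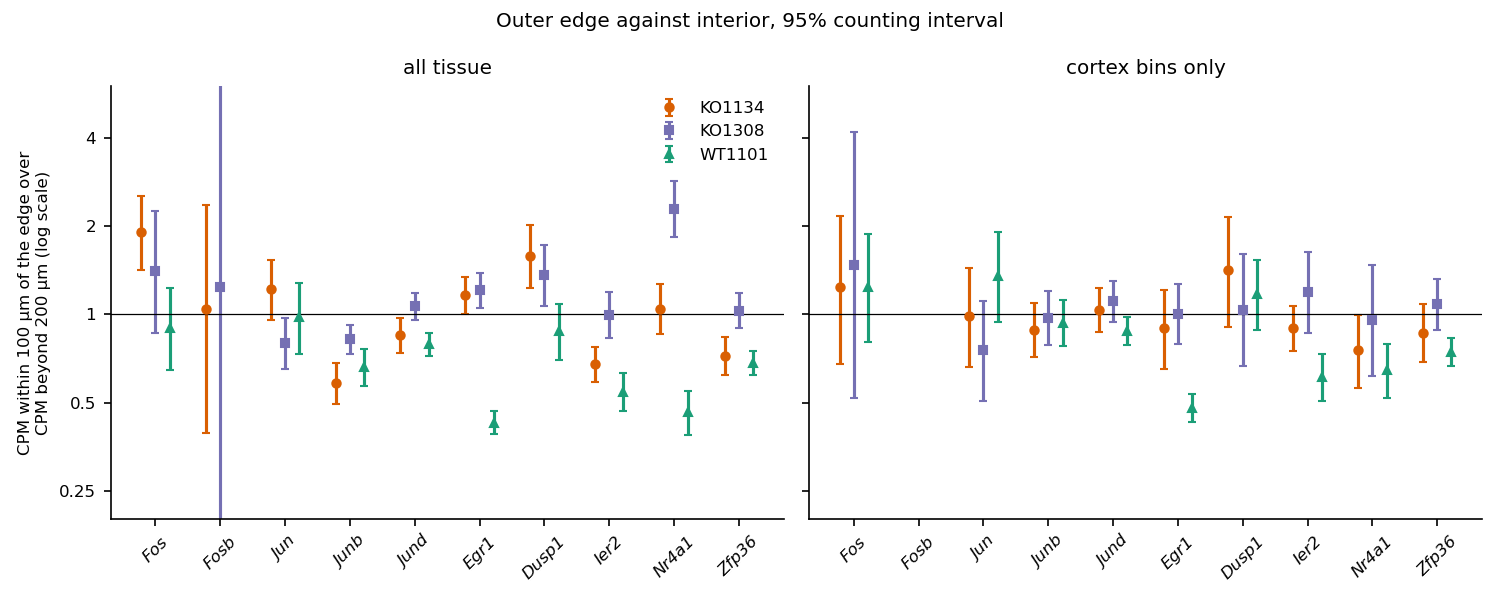
Ratio of CPM within 100 µm of the outer edge to CPM beyond 200 µm (log axis) for each gene, over all tissue (left) and in cortex bins (right), with exact 95% intervals; ratios with under 3 UMIs on a side are not drawn. *Nr4a1* of KO1308 lies at 2.29 on the left and 0.957 on the right, and *Egr1* of WT1101 lies at 0.427 and 0.481.

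At the cortex edge of WT1101, 3 of 9 members were lower, *Egr1*, *Ier2* and *Nr4a1* (5.85% of all genes), and none in KO1134 (0 of 8, 2.16%) or KO1308 (0 of 6, 2.24%). *Egr1* had 80.5, 129.8, 159 and 172 CPM at 0 to 100, 100 to 200, 200 to 400 and over 400 µm from the edge in the cortex of WT1101. In the cortex of the KO sections it stood at 20.6, 12.8, 21.9 and 24.4 CPM in KO1134 and 57.2, 64.3, 55.8 and 63.1 CPM in KO1308. The edge to interior ratio was 0.481 (0.430 to 0.536) in WT1101, 0.896 (0.652 to 1.21) in KO1134 and 1.00 (0.791 to 1.26) in KO1308. *Nr4a1* had 23.2, 33.4, 37.2 and 35.2 CPM over the same distances in WT1101, a ratio of 0.645 (0.520 to 0.794), and *Ier2* had 30.8, 42.8, 50.1 and 50.8 CPM, a ratio of 0.610 (0.507 to 0.729). For all 3 genes the 4 parts of WT1101 each had the edge lower. Of the T cell receptor induced genes, 7 of 13 were lower at the cortex edge of WT1101, 0 of 9 in KO1134 and 1 of 7 in KO1308. Median depth was 2400.5 UMIs a bin at the cortex edge of WT1101 and 1446 beyond 400 µm, and its part in these ratios was not tested.

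**Figure D4:**
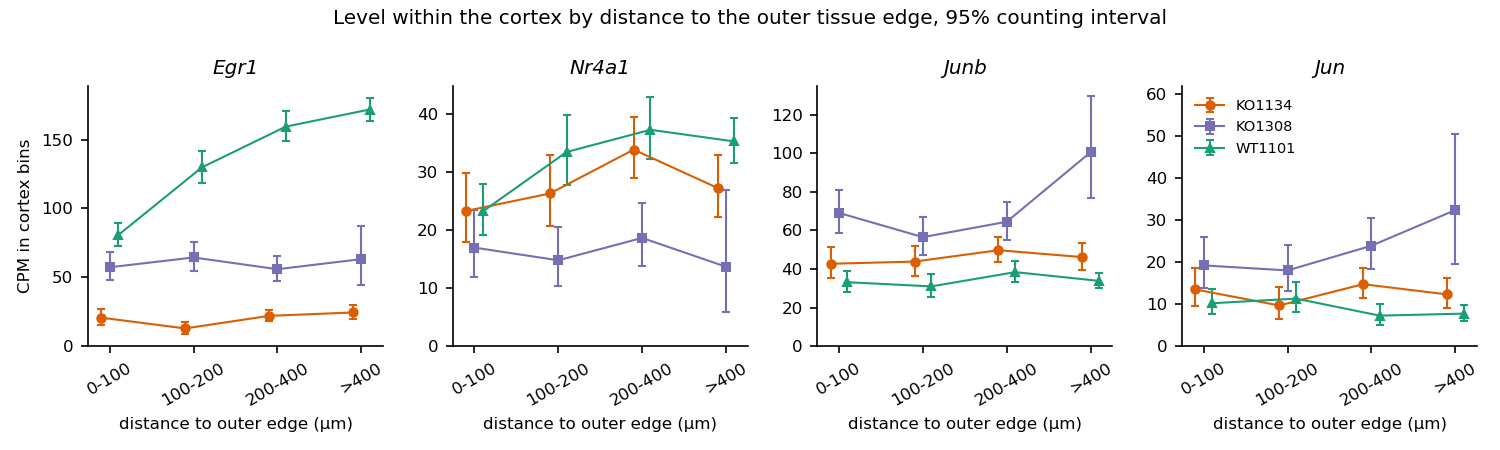
CPM in cortex bins (y axis) of *Egr1*, *Nr4a1*, *Junb* and *Jun* in 4 zones of distance to the outer edge (x axis, µm) in KO1134, KO1308 and WT1101, with exact 95% intervals. *Egr1* climbs from 80.5 to 172 CPM in WT1101 and stays between 12.8 and 24.4 CPM in KO1134; the last point of KO1308 rests on 487 bins.

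At the limit of 300 genes a bin, the medulla reached the edge zone in KO1308, with 1450 bins within 100 µm, beside 41 in KO1134 and 2 in WT1101. This outline depends on the limit. KO1308 had 6138 medulla bins at 300 genes, 3715 of them beyond 200 µm, and 10200 at 100 genes, 9797 of them beyond 200 µm. Whether the zones follow the edge of the tissue was not tested. In this medulla at 300 genes the summed members stood at 754 CPM (696 to 816) within 100 µm, 737 CPM at 100 to 200 µm, 589 CPM at 200 to 400 µm and 507 CPM (478 to 537) beyond 400 µm. *Junb* had 226, 196, 160.2 and 143 CPM over these zones and *Jund* had 183, 143, 134 and 106 CPM, whereas *Jun* had 32.7, 41.1, 46.2 and 47.2 CPM. Median depth within 100 µm of the edge was 613 UMIs a bin in KO1308, and 11179 bins outside its tissue outline also held 707 CPM of the members. Bins outside the outline held 599 CPM in WT1101 (128 UMIs) and 102 CPM in KO1134 (3 UMIs). The part of such RNA in the level at the medullary edge was not tested.

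Fat around the KO thymus was compared with the cortex of the same section. In fat the summed members stood at 564 CPM in KO1134 and 544 CPM in KO1308, above the cortex at 298 and 410.1 CPM. The ratio of fat to cortex was above 1 in 3 of 3 parts of KO1134 and in 1 of 4 parts of KO1308, where parts lay between 0.599 and 1.53. In fat, 5 of 9 members were higher than in cortex in KO1134 (11.4% of all genes tested) and 4 of 8 in KO1308 (11%), and 0 of 9 and 3 of 8 were lower (53.5% and 69.3%). *Jun* stood at 49.0 and 55.5 CPM in fat of KO1134 and KO1308, *Egr1* at 152 and 119 CPM, and *Dusp1* at 48.2 and 63.8 CPM. Their ratios to cortex were 3.82 and 2.59, 7.42 and 2.01, and 4.87 and 3.65, and each was above 1 in 3 of 3 parts of KO1134 and 2 of 4 of KO1308. *Fos* stood at 48.2 CPM in fat of KO1134 (65 UMIs) and 5.80 CPM in that of KO1308 (7 UMIs), and *Nr4a1* at 41.5 and 152 CPM.

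The excess of *Nr4a1* in KO1308, a ratio of 9.20 (7.31 to 11.6), was found in 1 of 4 parts of the section, and that of *Fos* in KO1134, 7.95 (5.67 to 11.1), in 2 of 3 parts. Compared with cortex within 100 µm of the edge alone, fat had ratios of 6.92 and 2.20 for *Egr1*, 3.81 and 2.97 for *Jun*, 4.04 and 3.42 for *Dusp1*, and 1.96 and 7.86 for *Nr4a1* in KO1134 and KO1308. Those of *Jun* and *Dusp1*, and that of *Nr4a1* in KO1134, rest on under 100 UMIs and were not tested. There 2 of 5 and 2 of 6 members were higher (10.5% and 12.4% of all genes) and 1 and 3 lower (56.4% and 67.2%). *Junb*, at 50.4 and 32.3 CPM, had ratios to all cortex of 1.09 and 0.489, and *Zfp36*, at 69.7 and 23.2 CPM, had 1.69 and 0.303. Mitochondrial UMIs made up 12.2% and 16.9% of fat, *Ucp1*, the uncoupling protein of brown fat, took 579 and 2065 CPM, and endothelial markers (6 of 6 detected) took 348 and 483 CPM in fat beside 106 and 152 CPM in cortex. Their part in the levels of the members was not tested. With fat, muscle, connective and lymph-node-like bins set aside, *Nr4a1* of KO1308 stood at 17.4 CPM at the edge and 16.4 CPM in the interior, and *Fos* of KO1134 at 7.40 and 8.07 CPM. In that comparison, added after seeing the data like those of fat and of lymph-node-like zones, 0 members were higher in any section (2.94%, 1.56% and 2.39% of all genes) and 2 of 9, 1 of 8 and 4 of 9 were lower (10.7%, 5.41% and 13.3%).

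Lymph-node-like zones of the KO sections held 529 and 537 CPM of the members. *Egr1* stood there at 85.7 CPM in KO1134 and 84.0 CPM in KO1308, 4.18 (3.62 to 4.84) and 1.42 (1.11 to 1.79) times the cortex of the same section. *Ier2* stood at 127 and 60.8 CPM, 1.98 and 1.90 times the cortex. As in fat, *Jun* and *Dusp1* were also above cortex there. *Jun* stood at 18.0 and 48.6 CPM beside 12.8 and 21.4 CPM in cortex, and *Dusp1* at 16.5 and 29.4 CPM beside 9.90 and 17.5 CPM. Higher there were 5 of 9 members in KO1134 and 4 of 8 in KO1308 (14.2% and 13.1% of all genes), and none was lower (31.5% and 29%). These zones rest on 1959 and 461 bins, and fat markers took 744 and 136 CPM in them.

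Each KO section was then set beside the single WT section within a compartment. In medulla the summed members were 0.572 (0.549 to 0.595) times WT in KO1134 and 0.760 (0.730 to 0.792) times in KO1308, and in cortex 0.611 (0.590 to 0.633) and 0.840 (0.807 to 0.874) times. Over all tissue, *Jun* and *Ier2* were higher and 4 of 9 lower in KO1134 (24.6% and 19.5% of all genes), and *Jun* and *Junb* higher and 2 of 9 lower in KO1308 (29.3% and 13.3%). In medulla none of 9 was higher and *Jund*, *Egr1*, *Dusp1*, *Nr4a1* and *Zfp36* were lower in KO1134 (15.6% and 17.6% of all genes tested). In KO1308, *Jun* and *Junb* were higher and *Egr1*, *Ier2*, *Nr4a1* and *Zfp36* lower (20.7% and 14.9%). In cortex, 0 of 9 were higher and *Egr1* and *Zfp36* lower in KO1134 (23.6% and 20.9%), and *Jun* and *Junb* were higher and *Fos*, *Egr1* and *Nr4a1* lower in KO1308 (23.5% and 10.3%). Both comparisons share the WT section, so its own departures enter both.

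In medulla the lowest ratios were those of *Egr1* and *Nr4a1*. *Egr1* stood at 47.9 CPM in medulla of KO1134 and 76.8 CPM in KO1308 beside 229 CPM in WT1101, ratios of 0.210 (0.187 to 0.234) and 0.336 (0.303 to 0.372). In cortex its levels of 20.5 and 59.4 CPM were 0.143 (0.126 to 0.161) and 0.413 (0.374 to 0.456) times the 144 CPM of WT1101. For *Nr4a1* the medulla was 0.337 (0.290 to 0.390) and 0.216 (0.176 to 0.264) times WT, whereas the cortex was 0.867 (0.767 to 0.979) and 0.504 (0.415 to 0.607) times. *Zfp36* was 0.591 and 0.637 times WT in medulla and 0.400 and 0.739 times in cortex. Over all tissue within 100 µm of the edge the values differed. *Nr4a1* was 1.28 (1.00 to 1.64) and 1.74 (1.40 to 2.18) times WT in KO1134 and KO1308, and the summed members 0.971 (0.908 to 1.04) and 1.39 (1.31 to 1.47) times. These bins include fat, which WT1101 lacks, and *Nr4a1* stood at 41.5 and 152 CPM in fat of KO1134 and KO1308. The part of fat in these ratios to WT was not tested. *Egr1* was 0.694 and 0.957 times WT there, where WT1101 stood at 78.1 CPM.

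*Jun* and *Junb* went the other way, and *Jund* did not. *Junb* was 1.19 (1.08 to 1.32) and 2.01 (1.82 to 2.21) times WT in medulla of KO1134 and KO1308, and 1.35 (1.22 to 1.501) and 1.93 (1.72 to 2.16) times in cortex. *Jun* was 1.37 (1.10 to 1.71) and 2.55 (2.08 to 3.14) times WT in medulla and 1.47 (1.20 to 1.81) and 2.46 (1.99 to 3.04) times in cortex. All of these lay above 1, and those of KO1134 fell short of 1.5-fold. *Jund* was 0.560 times WT in medulla of KO1134 and 1.00 times in KO1308, and *Ier2* was 0.965 and 0.666 times. *Fos* was 0.834 (0.626 to 1.11) and 0.673 (0.478 to 0.938) times WT in medulla, within 1.5-fold.

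Weighting the KO strata by the share that each compartment and distance zone has in WT1101 (10 strata with 99.7% of its UMIs) gave the ratio for a like mix of compartments and zones as called. So weighted, *Egr1* was 0.181 and 0.331 times WT in KO1134 and KO1308, *Nr4a1* 0.630 and 0.318 times, *Jun* 1.58 and 3.25 times, *Junb* 1.31 and 2.06 times and the sum 0.619 and 0.792 times. Cortex and medulla were called against each section's own marker shares, so compartments of the same name may hold unlike tissue. *Rag1* stood at 13.3, 150 and 500 CPM in medulla of KO1134, KO1308 and WT1101. Called against the marker shares of WT1101, 4 bins of KO1134 were cortex. Genotype cannot be told apart from the thymocyte make-up of the compartments, from depth, from the age of one KO mouse or from the tissue attached to the sections. Nor can it be told apart from the permeabilisation time, which the study set separately for KO and WT thymus.

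**Figure D5:**
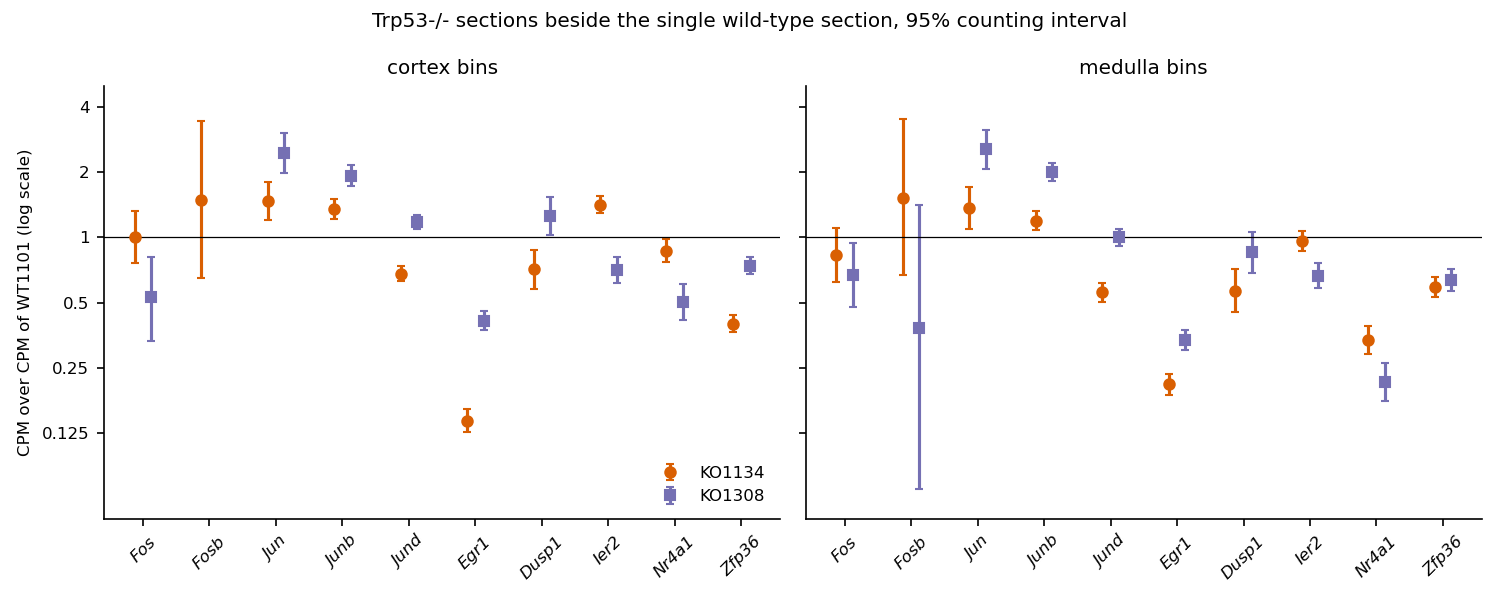
Ratio of CPM in each KO section to WT1101 (log axis) for each gene in cortex (left) and medulla (right), with exact 95% intervals; the denominator is WT1101 for each and ratios with under 3 KO UMIs are not drawn. *Egr1* lies at 0.210 and 0.336 in medulla, and *Junb* at 1.19 and 2.01.

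Of the 14 genes induced by T cell receptor signals, 8 were lower than WT in medulla of KO1134 and 8 in that of KO1308, with median ratios of 0.544 and 0.608. *Cd69* was 0.269 and 0.304 times WT in KO1134 and KO1308. *Itm2a*, an activation gene of selected thymocytes, was 0.278 and 0.167 times. *Egr2*, which acts with *Egr1* in selection, was 0.312 and 0.483 times, and *Cd5*, whose level tracks signal strength, 0.450 and 0.569 times. *Gadd45b* was 2.07 and 0.994 times and *Tnfrsf4* (OX40), a costimulatory receptor, 1.31 and 1.67 times. Of the 26 other immediate early genes, 7 of 25 were higher and 6 lower in KO1134 and 4 of 23 and 4 in KO1308, with medians of 0.933 and 1.03. Heat shock genes had 2 of 11 higher and none lower in KO1134, and none higher and 3 lower in KO1308. Of all genes tested in medulla, 15.6% were higher than WT and 17.6% lower in KO1134, and 20.7% and 14.9% in KO1308. Their median ratios were 0.939 and 1.01. The ratios of KO1134 and KO1308 again share the WT section.

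Members were only loosely tied to each other. Over blocks of 1 section, the 45 pairs had a median Pearson's r of 0.155 in KO1134, 0.0763 in KO1308 and 0.0745 in WT1101, and the highest were *Nr4a1* with *Zfp36* at 0.355, *Junb* with *Jund* at 0.423 and *Jund* with *Egr1* at 0.397. By Spearman's rho the highest were *Egr1* with *Zfp36* at 0.485, *Junb* with *Jund* at 0.338 and *Egr1* with *Nr4a1* at 0.441, and *Nr4a1* with *Zfp36* in KO1134 had 0.0943, so the leading pair depends on the measure. Counts are low, and blocks of a section share its library. Across 47 strata of section, compartment and distance, the level of the summed members went most closely with *Egr1* among its own (r = 0.783) and least with *Fosb* (r = 0.213). Of 9291 other genes, those most like the sum were *Tmem134* (r = 0.796), the nuclear RNA *Neat1* (0.753), *Zfp467* (0.743), the junction gene *F11r* (0.737) and *Pnrc1* (0.721). *Irf4*, a lymphocyte transcription factor, stood eighth at 0.703. Strata of 1 section share its library, so these are descriptions.

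The genes lie on 7 chromosomes, with positions from GENCODE M21 on GRCm38. *Fos* is at chr12:85473890-85477273, *Jun* at chr4:95049034-95052222, *Junb* at chr8:84974484-84978718 and *Nr4a1* at chr15:101254269-101274795. *Jun*, *Junb*, *Jund*, *Dusp1* and *Zfp36* share exon bases with a gene on the other strand. For *Jund* that gene is *Gm11175*, with 877 of 1668 exon bases shared and 0 to 4 UMIs in cortex and medulla of a section.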

How the data were processed

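Spatial transcriptomes were measured on 3 sections of frozen mouse thymus, 2 KO and 1 WT. The authors deposited raw UMI counts per gene and barcoded spot, made with BSTMatrix and STAR on GRCm38 per the methods and the submitters' processing notes. No spot was filtered before deposit as far as the files show, and folded tissue, which the authors removed, was kept. Spots 4.8 µm apart were summed into bins of 27 µm, kept at 300 or more genes and at most 30% mitochondrial UMIs, in connected groups of 200 or more bins. Windows of 7 × 7 bins gave the compartment from marker genes that exclude the members. Cortex and medulla were called on marker shares relative to those of the section itself. Distance was taken to the outer outline with holes filled. UMIs were summed over bins into CPM with exact Poisson intervals, and ratios have exact conditional binomial intervals (95%), both for counting error only. A member or list gene was tested with 100 or more UMIs and called at 1.5-fold. The members, gene lists and comparisons were chosen with earlier results of these data known. Besides members, the text names genes of those lists, some of them chosen after their values were seen, and the genes most like the summed members by correlation over strata of 50000 or more UMIs. The counting steps were tested on simulated data. Python 3.11.15, numpy 2.4.6, scipy 1.17.1, pandas 2.3.3 and matplotlib 3.10.9 were used. Alternatives are given at the end.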

Additional observations from a re-analysis of the deposited data

Results flagged for a closer look

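For several genes the ratio of the WT section lay on one side of 1 and those of both KO sections on the other under the same comparison. With 1 WT section these differences were not tested, and both KO sections are read beside that single one. *Nr4a1* had a medulla to cortex ratio away from the edge of 2.48 in WT1101, 0.982 in KO1134 and 0.958 in KO1308. At the edge against the interior of all tissue, *Egr1* had 0.427 in WT1101 beside 1.16 and 1.21 in KO1134 and KO1308, and *Nr4a1* had 0.463 beside 1.05 and 2.29. *Fos* had 0.899 beside 1.90 and 1.40, *Dusp1* 0.875 beside 1.58 and 1.36, and *Fosb*, on 2 WT UMIs at the edge, 0.339 beside 1.04 and 1.24. Within the cortex, *Jun* had 1.35 in WT1101 beside 0.987 and 0.755, and *Jund* 0.878 beside 1.04 and 1.11. With the attached tissue set aside, *Fosb* had 0.345 beside 1.07 and 1.59, and *Jund* 0.777 beside 1.01 and 1.16. Some of these ratios show no direction. In KO1134 the intervals of *Nr4a1* (0.821 to 1.17 for medulla to cortex, 0.854 to 1.27 at the edge of all tissue) and *Fosb* (0.392 to 2.36 at that edge) hold 1. That of *Egr1* at the same edge of KO1134 (0.9998 to 1.34) holds 1 too. Those of *Fos* (1.42 to 2.53) and *Dusp1* (1.23 to 2.02) there lie above 1. The interval of *Nr4a1* for medulla to cortex in KO1308, and those of *Jun* at the cortex edge of each section, also hold 1. *Jun* in the cortex of KO1134 kept its side of 1 in 9 of 16 alternatives. Over the alternatives, the all-tissue edge ratio of WT1101 reached 1.24 for *Egr1*, 1.78 for *Nr4a1*, 1.55 for *Fos* and 1.39 for *Dusp1*. Each of these kept its side of 1 in 11 of 12 alternatives.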

How the results depend on the processing

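Of the alternatives for the summed members and the gene lists, 149 stayed close to the reported value and 23 moved. For the summed members (mean over sections), requiring a compartment share of at least 1.5 gave 1.36 for medulla over cortex (1.54 as reported), 1.35 away from the edge (1.44) and 0.528 for KO over WT in cortex (0.725), and left 123 cortex bins in WT1101. Measuring distance to holes as well as to the outline gave 1.12 for edge over interior (0.838), which crossed 1, and 1.27 for medulla over cortex away from the edge, and left 65 medulla bins in WT1101. Over these alternatives the *Nr4a1* medulla to cortex ratio of WT1101 ran from 1.13 to 9.51, and its *Egr1* edge to interior ratio in cortex from 0.316 to 1.03. Shares relative to WT left 4 cortex bins in KO1134, so ratios that need its cortex, and means that include them, could not be computed. That setting left 5572 medulla bins in KO1134, and 1293 cortex and 12433 medulla bins in KO1308. Of the related lists, a fold of 2 gave 1 other immediate early gene, 0 heat shock genes and 1 AP-1 partner higher in medulla in all 3 sections, and at least 300 UMIs gave 1, 0 and 0, where 5, 3 and 2 were reported; T cell receptor induced genes went from 3 to 1 at 300 UMIs. Lower than WT in medulla at a fold of 2 were 1 heat shock gene in KO1308 (3 reported), 1 hypoxia gene in each KO section (2 reported, also 1 at 300 UMIs), and 2 and 0 upstream kinase genes in KO1134 and KO1308 (5 and 3 reported). Without 1 KO replicate, an alternative chosen after seeing the data, 8 to 9 other immediate early, 4 to 5 T cell receptor induced and 0 to 1 hypoxia genes were higher in medulla, a rule over fewer sections. No paired analysis was possible because the WT group holds 1 section and replicate numbers follow accession order. Depth limits *Fos* and *Fosb* most.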
